A study of Homo sapiens with 12 samples.

Results

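Collagen chains are the gene products that wind together in groups of 3 into the collagens, the main structural proteins outside cells. The chains were taken as the entries of the count table whose name consists of COL, a number, A and a number, with antisense and pseudogene entries left aside. This gave 44 of the 29744 entries, and all 44 were found in the GENCODE 44 annotation of GRCh38. The cells were MB157, an established triple-negative breast cancer line that carries a truncated, constitutively active NOTCH1, and MB157R, a derivative grown for 25 weeks in 1 µM of a γ-secretase inhibitor (GSI), a drug that blocks the release of the NOTCH intracellular domain. Both carried lentiviral vectors that doxycycline switches on, and the 4 groups of 3 libraries were MB157R iN1-ICD, MB157R iEV, MB157 iSOX2 and MB157 iEV. The iN1-ICD vector expresses active NOTCH1, iSOX2 the transcription factor SOX2, and iEV is the empty vector. The labels give doxycycline at 1 µg/ml for 72 h in all 4 groups, controls included. MB157R is a single derived line, and whether it was a clone or a pool, or was still in GSI when RNA was taken, is not given in the sources used here.

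Collagens fall into families by the structure they build. Type IV forms the sheet-like network of basement membranes, on which epithelia rest. Types I, II, III, V, XI, XXIV and XXVII form fibrils, which the fibril-associated collagens decorate, and type VI forms beaded filaments. Type VII anchors the basement membrane to the fibrils beneath it, type VIII forms hexagonal lattices, types XV and XVIII are proteoglycans of the basement membrane zone, and types XIII, XVII, XXIII and XXV span the cell membrane. In most tissues fibroblasts make the bulk of fibrillar collagen, whereas epithelial cells make much of their own basement membrane and of the COL17A1 that ties them to it.

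The libraries held 32773816 to 49055204 estimated fragments assigned to genes, and the scaling factors (TMM) lay between 0.9474 and 1.05. The induced genes were read first as a check of the labels. SOX2 stood at 19.6, 20 and 17.4 CPM (read counts scaled to library size) in MB157R iN1-ICD, 63.8, 67 and 55.2 in MB157R iEV, 285, 328 and 293 in MB157 iSOX2 and 6.48, 7.58 and 6.87 in MB157 iEV. NOTCH1 stood at 2661, 1765 and 2619 CPM in MB157R iN1-ICD, 104, 87.3 and 93.2 in MB157R iEV, 35.5, 39.95 and 35.1 in MB157 iSOX2 and 108, 98 and 104 in MB157 iEV. Each was highest in the libraries that carry its vector. Each comparison was tested over all entries of the table with a mean count of at least 5, and a gene is named as called, or as having risen or fallen, where the adjusted p of edgeR's quasi-likelihood test was under 0.05. Differences are log2 fold changes ± standard error. The 6 mammary epithelial markers (KRT7, KRT8, KRT18, KRT19, EPCAM and CDH1) summed to 6270 to 7200 CPM in MB157R iN1-ICD, 5310 to 5380 in MB157R iEV, 1750 to 1800 in MB157 iSOX2 and 2220 to 2250 in MB157 iEV. In MB157R iEV against MB157 iEV 4 of the 6 were called higher and 2 lower, with iSOX2 0 higher and 4 lower, and with iN1-ICD 4 higher and 2 lower. The leukocyte list summed to 2.6 to 3.46 CPM in MB157R iN1-ICD, 0.353 to 0.452 in MB157R iEV, 7.53 to 9.32 in MB157 iSOX2 and 35.7 to 39.3 in MB157 iEV, with CD3E at 0 in all 4 groups. Of the 5 leukocyte genes, 2 were tested in MB157R iEV against MB157 iEV, with 0 called higher and 2 lower. With iSOX2, 3 were tested (1 higher, 1 lower), and with iN1-ICD 2 (2 higher, 0 lower). Over all entries tested, 42.9% were called higher and 43.8% lower in MB157R iEV against MB157 iEV. The shares were 28.4% and 27.9% with iSOX2, and 27.6% and 25.3% with iN1-ICD. In bulk RNA, fewer expressing cells and less RNA per cell cannot be told apart. The study calls its replicates biological, but the labels do not say whether these libraries came from separate cultures, so each p-value measures the spread between these samples, which may in part be technical.

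Collagen transcripts took the largest share of the counted fragments in the resistant line. The 44 chains together made up 0.317% to 0.355% of fragments in MB157R iN1-ICD, 0.44% to 0.466% in MB157R iEV, 0.14% to 0.147% in MB157 iSOX2 and 0.172% to 0.193% in MB157 iEV. The 3 libraries of each group lay close together, and the ranges of the 4 groups did not overlap. Compared per kilobase of transcript, COL4A2 was the most abundant chain in both MB157R groups, at 129 CPM per kilobase with iN1-ICD and 175 with iEV, followed by COL18A1 at 102 and 97.8. COL17A1 and COL7A1, which hold epithelial cells to their basement membrane, ranked 3 and 5 in MB157R iEV at 93.4 and 74 CPM per kilobase. In the parental line COL9A3, a chain of cartilage fibrils, came first at 56.2 CPM per kilobase with iSOX2 and 144 with iEV. Of the 44 chains, 36 averaged at least 1 CPM in a group and are given library by library, always in the order replicate 1, 2 and 3.

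In MB157R iEV against MB157 iEV, which asks what differs in the GSI-resistant line, 17 of the 36 chains tested rose and 16 fell, where 42.9% of all entries rose and 43.8% fell. The median chain differed by 0.00228, against -0.016 over all entries. In MB157 iSOX2 against MB157 iEV, the effect of SOX2 in the sensitive line, 12 of 36 rose and 14 fell (all entries 28.4% and 27.9%), with a median of -0.0733 against 0.00676. In MB157R iN1-ICD against MB157R iEV, the effect of active NOTCH1 in the resistant line, 15 of 34 rose and 9 fell (all entries 27.6% and 25.3%), with a median of 0.326 against 0.00985. The first comparison shares its MB157R iEV libraries with the iN1-ICD comparison and its MB157 iEV libraries with the iSOX2 comparison, so its values and theirs are not independent.

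**Figure D1:**
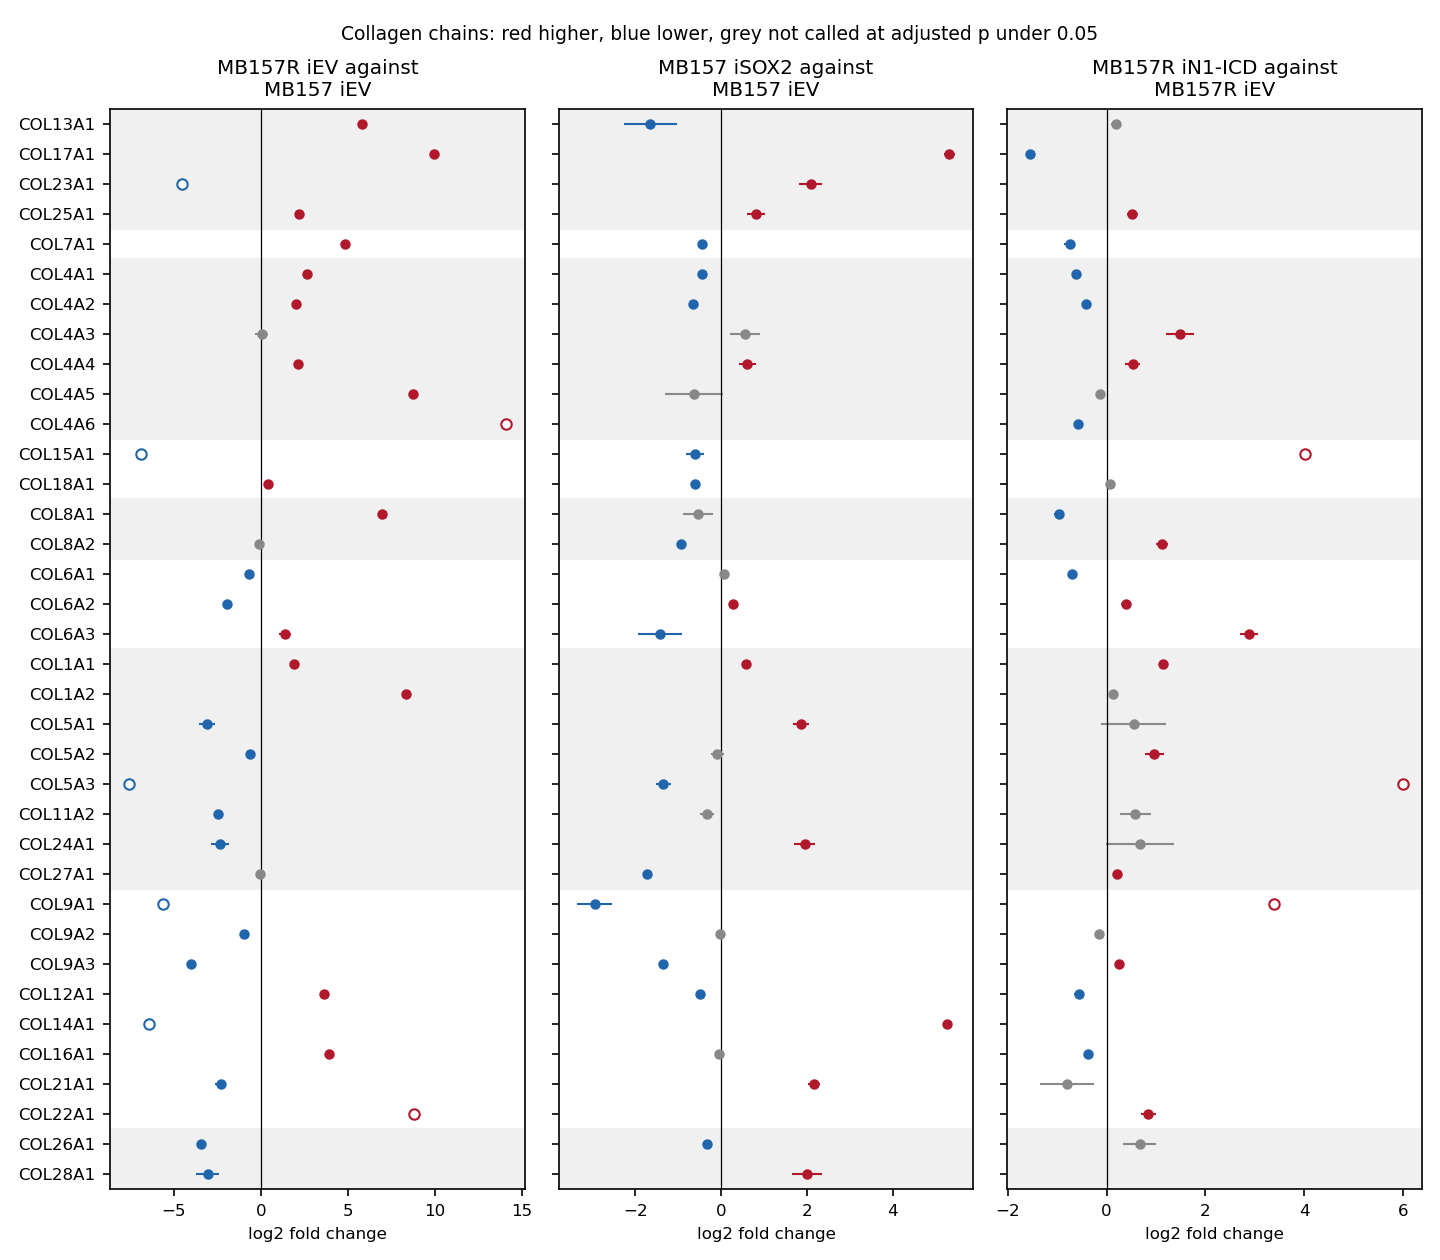
Log2 fold changes of the tested collagen chains of the level plot in the 3 comparisons; the x axis is the log2 fold change (first-named group over the second, scales differ between panels), bars are standard errors, and red, blue and grey mark chains called higher, called lower and not called. Open circles are chains with at most 3 fragments in a group, placed at their ratio or lower bound from counts, and the first panel holds 17 red chains, COL4A6 farthest right.

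Most type IV chains were higher in the resistant line than in its parent. Of the 6 chains, 5 rose in MB157R iEV and 0 fell (all entries 42.9% and 43.8%). With iSOX2, 1 of 5 tested rose and 2 fell (all entries 28.4% and 27.9%), and with iN1-ICD 2 of 6 rose and 3 fell (all entries 27.6% and 25.3%). The chains assemble in fixed combinations, COL4A1 with COL4A2 in nearly every basement membrane, COL4A3 with COL4A4 and COL4A5 in kidney and lung, and COL4A5 with COL4A6 in skin and smooth muscle. Their genes lie head to head in pairs. In the RefSeq start sites of GRCh38.p14, COL4A1 and COL4A2 start 127 bases apart on chromosome 13, COL4A4 and COL4A3 419 bases apart on chromosome 2, and COL4A6 and COL4A5 380 bases apart on chromosome X, where a second COL4A6 start lies 1416 bases away. The window of the plus-strand gene of each pair is printed here because the members of each pair are compared next. Each window covers 250 bases before to 50 after a start site and is read 5′ to 3′ on the strand of the named gene. Capitals mark the letters CATTGT (a form of the core bound by SOX factors), TGGGAA (the core bound by RBPJ, the DNA-binding partner of NOTCH) or GGGCGG (a GC box), on either strand. Other forms of the SOX core were not searched.
COL4A2 (chr13:110307034-110307333, plus strand): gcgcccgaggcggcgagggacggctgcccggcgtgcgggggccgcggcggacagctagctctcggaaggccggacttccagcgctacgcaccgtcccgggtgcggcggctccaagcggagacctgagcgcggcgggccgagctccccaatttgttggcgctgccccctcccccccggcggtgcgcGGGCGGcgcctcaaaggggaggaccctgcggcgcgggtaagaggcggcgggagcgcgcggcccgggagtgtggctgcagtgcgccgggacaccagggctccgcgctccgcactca
COL4A3 (chr2:227164374-227164673, plus strand): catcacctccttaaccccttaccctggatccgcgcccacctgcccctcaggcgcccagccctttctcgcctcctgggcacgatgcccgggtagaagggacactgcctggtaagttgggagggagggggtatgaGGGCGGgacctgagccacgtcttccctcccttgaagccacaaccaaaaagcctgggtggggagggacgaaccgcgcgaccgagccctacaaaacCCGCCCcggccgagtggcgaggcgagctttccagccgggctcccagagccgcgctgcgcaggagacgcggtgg
COL4A5 (chrX:108439588-108439887, plus strand): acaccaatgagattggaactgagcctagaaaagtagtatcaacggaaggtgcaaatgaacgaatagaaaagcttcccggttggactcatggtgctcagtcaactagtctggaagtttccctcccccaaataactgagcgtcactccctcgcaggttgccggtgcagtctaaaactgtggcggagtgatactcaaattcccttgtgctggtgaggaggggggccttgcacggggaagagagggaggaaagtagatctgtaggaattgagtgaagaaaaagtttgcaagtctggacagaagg

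The COL4A2 window holds 1 GC box, the COL4A3 window 2, and the COL4A5 window none of the 3 motifs. Of these, only the COL4A2 window reaches the start site of its partner. The windows of the minus-strand partners are not printed. That of COL4A1 holds 2 GC boxes and that of COL4A4 none of the 3 motifs. For COL4A6, the start nearer COL4A5 has none and the second start has 1 GC box. RefSeq windows were matched for 32 of the 44 chains, 44 windows in all. SOX letters occur in 3 of the 44 windows against 10.8% of 35116 windows of all genes, RBPJ letters in 7 against 24%, and GC boxes in 24 against 45%. A letter match is a description of the window and not evidence of binding. A window without a match may still hold a form of the SOX core that was not searched. The chains without a window were COL14A1, COL1A1, COL1A2, COL20A1, COL22A1, COL2A1, COL3A1, COL5A2, COL6A1, COL6A5, COL8A1 and COL9A3.

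COL4A1 and COL4A2 moved in the same direction in all 3 comparisons. COL4A1 stood at 398, 357 and 340.1 CPM in MB157R iN1-ICD and 587, 523 and 578 in MB157R iEV. In parental cells COL4A1 stood at 66.6, 65.1 and 65.1 with iSOX2 and 92.6, 90.7 and 85.8 with iEV. No library of one group overlapped the group it was compared with. The difference was 2.66 ± 0.049 in MB157R iEV against MB157 iEV (adjusted p = 1.02e-13), -0.45 ± 0.037 with iSOX2 (adjusted p = 4.66e-08) and -0.61 ± 0.06 with iN1-ICD (adjusted p = 1.06e-05). COL4A2 stood at 929, 819 and 753 CPM in MB157R iN1-ICD and 1140, 1037 and 1205 in MB157R iEV. With iSOX2, COL4A2 stood at 160.3, 183 and 177 and in MB157 iEV at 283, 279.7 and 264. Its differences were 2.04 ± 0.05 (adjusted p = 1.39e-12), -0.66 ± 0.045 (adjusted p = 5.81e-09) and -0.42 ± 0.073 (adjusted p = 0.000582) in the same order. Both chains were thus several times higher in the resistant line, and both fell with either induction. The ratio of COL4A1 to COL4A2 per kilobase had a median of 0.429 in MB157R iN1-ICD, 0.497 in MB157R iEV, 0.362 in MB157 iSOX2 and 0.321 in MB157 iEV.

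COL4A5 and COL4A6 were close to undetected in the parental line and abundant in the resistant line. COL4A5 stood at 97.4, 110.4 and 95.6 CPM in MB157R iN1-ICD and 112, 108 and 115 in MB157R iEV. In MB157 iSOX2, COL4A5 had 0.024, 0.242 and 0.244 CPM, and in MB157 iEV 0.482, 0.0936 and 0.265. It differed between the lines by 8.72 ± 0.14 (adjusted p = 3.03e-14). Neither induction passed the test, at -0.64 ± 0.68 with iSOX2 (adjusted p = 0.441) and -0.14 ± 0.058 with iN1-ICD (adjusted p = 0.0679), the second passing without MB157R iN1-ICD replicate 2 (adjusted p = 0.00351). COL4A6 stood at 99.7, 99.7 and 95.3 CPM in MB157R iN1-ICD and 144, 131 and 165 in MB157R iEV. Against these, the iSOX2 libraries held 1 fragment in all and the MB157 iEV libraries 1, so the difference between the lines is a ratio of pooled counts of 17300, with a counting interval of 3110 to 685000 (95%), in the direction of MB157R iEV (adjusted p = 2.33e-14). With iN1-ICD COL4A6 fell (-0.57 ± 0.068, adjusted p = 4.57e-05). The ratio of COL4A6 to COL4A5 per kilobase had a median of 0.973 in MB157R iN1-ICD and 1.25 in MB157R iEV.

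In MB157R, COL4A3 and COL4A4 were the least abundant pair. COL4A4 stood at 9.56, 10.1 and 7.8 CPM in MB157R iN1-ICD and 5.13, 6.06 and 7.94 in MB157R iEV. In parental cells COL4A4 stood at 1.85, 2 and 2.84 with iSOX2 and 1.6, 1.45 and 1.35 with iEV. It rose in MB157R iEV by 2.13 ± 0.18 (adjusted p = 2.31e-07), with iSOX2 by 0.61 ± 0.2 (adjusted p = 0.018) and with iN1-ICD by 0.53 ± 0.16 (adjusted p = 0.0147). The call with iSOX2 was lost without replicate 3 of MB157 iSOX2 (adjusted p = 0.139) or of MB157 iEV (0.0608), and the call with iN1-ICD, where the libraries overlapped, without MB157R iN1-ICD replicate 2 (0.0647) or MB157R iEV replicate 1 (0.0595). COL4A3 stood at 1.36, 2.27 and 1.54 CPM in MB157R iN1-ICD and 0.612, 0.776 and 0.473 in MB157R iEV. With iSOX2, COL4A3 stood at 0.576, 1.21 and 0.843 and in MB157 iEV at 0.814, 0.632 and 0.362. It rose with iN1-ICD by 1.48 ± 0.29 (adjusted p = 0.00123), whereas the lines overlapped (log2 difference 0.06 ± 0.37, adjusted p = 0.881), as did iSOX2 and MB157 iEV (0.56 ± 0.35, adjusted p = 0.192).

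**Figure D2:**
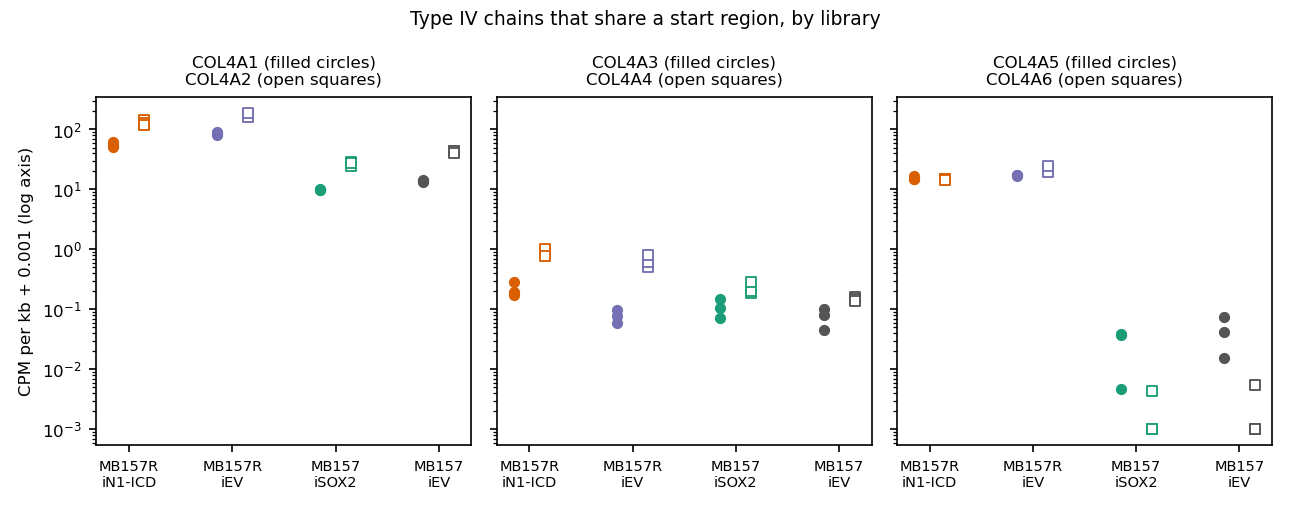
Levels of the 6 type IV chains by head-to-head pair in each library, in CPM per kilobase plus 0.001 on a log axis; filled circles and open squares are the chains of a pair and the columns are the 4 groups. COL4A5 and COL4A6 sit near the bottom of the plot in both MB157 groups and have means between 14.7 and 22 CPM per kilobase in both MB157R groups.

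Genes listed as partners of the type IV network were read beside it. The 10 genes were laminin chains, nidogens, perlecan, agrin, peroxidasin, the receptor DDR1 and CERT1 (entered as COL4A3BP). In MB157R iEV against MB157 iEV, 8 of the 10 rose and 1 fell, where 42.9% of all entries rose and 43.8% fell. Their median log2 difference was 1.09 against -0.016 over all entries. NID2, a nidogen that links laminin to type IV collagen, was at 0 in the MB157 iEV libraries and at least 178-fold higher in MB157R iEV. HSPG2, the proteoglycan perlecan, rose by 4.33 ± 0.13 (adjusted p = 7.66e-12), and PXDN, the peroxidase that crosslinks type IV collagen, fell (-0.48 ± 0.041, adjusted p = 2.13e-07). With iSOX2, 3 of 9 tested rose and 3 fell (median 0.0682 against 0.00676), among them the laminin chain LAMC1 at 0.8 ± 0.034 and NID1 at 0.26 ± 0.034, and the laminin chains LAMB1 at -0.52 ± 0.033 and LAMA5 at -0.35 ± 0.054. With iN1-ICD, 3 of 10 rose and 3 fell (median -0.00259 against 0.00985), NID2 rising by 1.35 ± 0.13 and DDR1 by 0.34 ± 0.043, and AGRN (-0.73 ± 0.058) and LAMA5 (-0.28 ± 0.085) falling. The 5 endothelial markers (PECAM1, CDH5, VWF, KDR and TEK), read because endothelium makes type IV collagen, summed to 45.5 to 50.7 CPM in MB157R iN1-ICD, 4.39 to 4.82 in MB157R iEV, 101 to 110 in MB157 iSOX2 and 7.33 to 8.19 in MB157 iEV, with CDH5 at 0 in MB157 iEV. The sum was higher in both induced groups, where COL4A1 and COL4A2 were lower, but different genes carried it. With iSOX2 it was mostly PECAM1 (mean 92.6 CPM), and with iN1-ICD mostly KDR and TEK (means 22.2 and 19.1 CPM), while CDH5 fell (-0.65 ± 0.24). The part of these genes in the collagen values was not tested. Of 4 endothelial markers tested in MB157R iEV, 2 rose and 1 fell (all entries 42.9% and 43.8%). With iSOX2, 3 of 4 tested rose (PECAM1 by 11.66 ± 0.14) and 0 fell (all entries 28.4% and 27.9%). With iN1-ICD, 3 of 5 rose (TEK by 8.21 ± 0.28) and 1 fell (all entries 27.6% and 25.3%).

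COL17A1 had among the widest differences of the chains. It spans the membrane as part of the hemidesmosome, the rivet between basal epithelial cells and their basement membrane (chromosome 10, 104031286 to 104085880, 56 exons in the canonical transcript). It stood at 182, 186 and 164 CPM in MB157R iN1-ICD and 500, 475 and 598 in MB157R iEV. With iSOX2, COL17A1 stood at 23.4, 21.4 and 19.7 and in MB157 iEV at 0.512, 0.608 and 0.482. The 4 groups did not overlap, with MB157 iEV under 1 CPM and every other group above it. Against MB157 iEV it rose by 9.93 ± 0.13 in MB157R iEV (adjusted p = 4.94e-15) and by 5.31 ± 0.12 with iSOX2 (adjusted p = 1.46e-14). With iN1-ICD in MB157R it fell (log2 difference -1.55 ± 0.078, adjusted p = 6.47e-08). Its promoter window, shown because both inductions moved the gene in opposite directions, has a GC content of 40.7% against a median of 58.7% over all windows. The window holds none of the 3 letter strings searched. Other forms of the SOX core, such as CTTTGT, were not searched, and CTTTGT does occur in it.
COL17A1 (chr10:104085831-104086130, minus strand): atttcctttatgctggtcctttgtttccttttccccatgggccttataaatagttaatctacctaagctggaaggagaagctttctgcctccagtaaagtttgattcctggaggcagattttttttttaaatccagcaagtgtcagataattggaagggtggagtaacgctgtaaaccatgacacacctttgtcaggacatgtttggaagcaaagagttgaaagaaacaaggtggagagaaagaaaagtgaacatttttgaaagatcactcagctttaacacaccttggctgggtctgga

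COL7A1, the chain of the anchoring fibrils that bind the hemidesmosome zone to the matrix below, rose in the resistant line as COL17A1 did, but fell with SOX2. It stood at 366, 462 and 386 CPM in MB157R iN1-ICD and 743, 739 and 568 in MB157R iEV. In MB157 iSOX2, COL7A1 had 20.3, 17 and 15.6 CPM, and in MB157 iEV 26.5, 21.2 and 25. It rose in MB157R iEV by 4.83 ± 0.12 (adjusted p = 1.29e-12) and fell with iSOX2 (-0.46 ± 0.093, adjusted p = 0.000606) and with iN1-ICD (-0.75 ± 0.11, adjusted p = 0.000205). A microRNA gene on the same strand overlaps 0.39% of the exon bases of COL7A1 and 0.285% of those of COL17A1.

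Of the 10 hemidesmosome partners of these chains, 8 rose and 2 fell in MB157R iEV against MB157 iEV (all entries 42.9% and 43.8%), with a median of 1.99 against -0.016 over all entries. The laminin chain LAMA3 (6.89 ± 0.068) rose and the basal keratins KRT14 (-2.94 ± 0.063) and KRT5 (-0.7 ± 0.053) fell. With iSOX2, 5 rose and 3 fell (all entries 28.4% and 27.9%, median 0.0649 against 0.00676). DST, the plakin that ties keratin filaments to COL17A1 (1.5 ± 0.054), rose, and KRT5 (-2.05 ± 0.047) and KRT14 (-1.4 ± 0.052) fell. With iN1-ICD, 2 rose and 6 fell (all entries 27.6% and 25.3%, median -0.265 against 0.00985). KRT14 (6.56 ± 0.081) and KRT5 (1.56 ± 0.1) rose, and the linker PLEC (-1.52 ± 0.12) and the integrin chain ITGB4 (-1.04 ± 0.064) fell.

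The other 3 membrane-spanning collagens each followed a course of their own. COL13A1, a collagen of cell adhesion sites and the neuromuscular junction, stood at 19.4, 18.8 and 17.9 CPM in MB157R iN1-ICD and 13.9, 15.8 and 19.6 in MB157R iEV. In MB157 iSOX2, COL13A1 had 0.024, 0.0659 and 0.177 CPM, and in MB157 iEV 0.331, 0.351 and 0.193. It rose in the resistant line by 5.82 ± 0.2 (adjusted p = 3.82e-11). It fell with iSOX2 (-1.65 ± 0.62, adjusted p = 0.0318), a call lost with DESeq2 and without replicate 1 or 2 of either group (adjusted p between 0.0743 and 0.105), and with iN1-ICD it missed the threshold (0.2 ± 0.1, adjusted p = 0.142), passing without MB157R iEV replicate 3 (0.00544).
COL23A1 was listed at 0 in all 6 MB157R libraries, and stood at 1.99, 2.7 and 2.08 CPM with iSOX2 and 0.301, 0.632 and 0.627 in MB157 iEV. It was at least 23.1-fold lower in MB157R iEV, taking 3 fragments over the group as the limit that a count of 0 allows, and rose with iSOX2 by 2.09 ± 0.26 (adjusted p = 6.46e-06). COL25A1, known from amyloid plaques and from motor nerve growth in mice, stood at 7.93, 9.15 and 7.63 CPM in MB157R iN1-ICD and 5.58, 5.56 and 6.15 in MB157R iEV. With iSOX2, COL25A1 stood at 1.97, 2.13 and 2.44 and in MB157 iEV at 1.6, 1.17 and 1.01. It rose in all 3 comparisons, by 2.21 ± 0.17 between the lines (adjusted p = 9.99e-08), 0.8 ± 0.21 with iSOX2 (adjusted p = 0.00372) and 0.52 ± 0.11 with iN1-ICD (adjusted p = 0.00188).

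The basement membrane proteoglycans split in direction between the lines. COL18A1, whose end is cut off as endostatin, was abundant in all groups, at 600, 548 and 515 CPM in MB157R iN1-ICD and 527, 518 and 542 in MB157R iEV. With iSOX2, COL18A1 stood at 251, 274 and 258 and in MB157 iEV at 428, 384 and 387. The difference between the lines was 0.41 ± 0.042 (adjusted p = 1.45e-06) and with iSOX2 -0.61 ± 0.044 (adjusted p = 1.03e-08). With iN1-ICD the groups overlapped and the difference of 0.077 ± 0.051 missed the threshold (adjusted p = 0.233), passing without MB157R iN1-ICD replicate 3 (0.0469). COL15A1, its relative, stood at 0.156, 0.277 and 0.332 CPM in MB157R iN1-ICD and 0, 0.0501 and 0 in MB157R iEV. In MB157 iSOX2, COL15A1 had 0.959, 1.3 and 1.31 CPM, and in MB157 iEV 2.17, 1.69 and 1.66. With only 2 fragments in MB157R iEV, the ratio of pooled counts was 117 in the direction of MB157 iEV (counting interval 32.0 to 972, adjusted p = 2.17e-07) and 16.3 in the direction of MB157R iN1-ICD (4.15 to 140, adjusted p = 0.00405). With iSOX2 it fell (-0.62 ± 0.21, adjusted p = 0.0213), a call lost in a fit over all 12 libraries and without replicate 1 of MB157 iSOX2 (adjusted p = 0.0853) or of MB157 iEV (0.0845).

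The pair of type VIII chains, which build the lattice beneath corneal and vascular endothelium, changed its proportion between the lines. COL8A1 stood at 62.6, 68.1 and 52 CPM in MB157R iN1-ICD and 109.8, 116 and 134 in MB157R iEV. In parental cells COL8A1 stood at 0.647, 0.966 and 0.444 with iSOX2 and 1.48, 0.702 and 0.868 with iEV. It rose in MB157R iEV by 6.94 ± 0.14 (adjusted p = 1.91e-13) and fell with iN1-ICD (-0.97 ± 0.094, adjusted p = 1.04e-05), and with iSOX2 the libraries overlapped (-0.54 ± 0.34, adjusted p = 0.197). COL8A2 stood at 21.8, 22.7 and 16.3 CPM in MB157R iN1-ICD and 8.19, 9.06 and 10.8 in MB157R iEV. With iSOX2, COL8A2 stood at 5.42, 5.36 and 5.3 and in MB157 iEV at 10.1, 10.2 and 10.2. It fell with iSOX2 (-0.93 ± 0.08, adjusted p = 1.01e-07) and rose with iN1-ICD (1.12 ± 0.13, adjusted p = 3.81e-05). The lines overlapped (-0.12 ± 0.1, adjusted p = 0.272), although the test passed without MB157R iEV replicate 3 (0.0198). The ratio of COL8A2 to COL8A1 per kilobase had a median of 0.393 in MB157R iN1-ICD, 0.0921 in MB157R iEV, 9.89 in MB157 iSOX2 and 13.9 in MB157 iEV.

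The type VI chains, whose beaded filaments surround many cells and whose loss causes muscle disease, did not move as a unit. COL6A1 stood at 74, 74.2 and 63.4 CPM in MB157R iN1-ICD and 124, 117 and 107 in MB157R iEV. In MB157 iSOX2, COL6A1 had 193, 202 and 191 CPM, and in MB157 iEV 193, 187 and 181. COL6A1 fell in MB157R iEV (-0.68 ± 0.053, adjusted p = 9.8e-08) and further with iN1-ICD (-0.7 ± 0.072, adjusted p = 1.39e-05), and with iSOX2 the difference of 0.062 ± 0.034 missed the threshold (adjusted p = 0.141). COL6A2 stood at 50.4, 54.8 and 39.9 CPM in MB157R iN1-ICD and 36.8, 37.9 and 36.2 in MB157R iEV. With iSOX2, COL6A2 stood at 171, 183 and 164 and in MB157 iEV at 154, 138 and 133. COL6A2 fell in MB157R iEV (-1.93 ± 0.056, adjusted p = 6.02e-12) but rose with iSOX2 (0.28 ± 0.05, adjusted p = 0.000187) and with iN1-ICD (0.4 ± 0.094, adjusted p = 0.00457).
COL6A3, the long chain that completes the filament, was low beside its partners, at 8.02, 6.46 and 6.73 CPM in MB157R iN1-ICD and 1.18, 0.726 and 0.968 in MB157R iEV. In parental cells COL6A3 stood at 0.0719, 0.176 and 0.155 with iSOX2 and 0.211, 0.421 and 0.458 with iEV. It rose in MB157R iEV by 1.37 ± 0.35 (adjusted p = 0.00294) and with iN1-ICD by 2.89 ± 0.18 (adjusted p = 3.86e-07). With iSOX2 it fell (-1.43 ± 0.5, adjusted p = 0.0231), a call lost with DESeq2 and without MB157 iSOX2 replicate 1 (0.0838) or MB157 iEV replicate 2 (0.0678) or 3 (0.0909). Per kilobase, the ratio of COL6A3 to COL6A1 had a median of 0.0424 in MB157R iN1-ICD, 0.00362 in MB157R iEV and 0.000898 in MB157 iEV. The ratio of COL6A2 to COL6A1 was 0.831, 0.396, 1.08 and 0.901 in MB157R iN1-ICD, MB157R iEV, MB157 iSOX2 and MB157 iEV.

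Among the fibril-forming chains, 2 of 8 tested rose and 5 fell in MB157R iEV against MB157 iEV, where 42.9% of all entries rose and 43.8% fell. With iSOX2, 4 of 9 rose and 2 fell (all entries 28.4% and 27.9%), and with iN1-ICD 4 of 8 rose and 0 fell (all entries 27.6% and 25.3%). COL1A1 and COL1A2 build type I collagen, the main collagen of bone, skin and tendon. COL1A1 stood at 139, 145 and 144 CPM in MB157R iN1-ICD and 71.9, 67.2 and 56.8 in MB157R iEV. With iSOX2, COL1A1 stood at 26.8, 26.9 and 25.4 and in MB157 iEV at 20.5, 16.9 and 16. It rose in all 3 comparisons, by 1.89 ± 0.1 between the lines (adjusted p = 2.36e-09), 0.57 ± 0.075 with iSOX2 (adjusted p = 9.9e-06) and 1.14 ± 0.076 with iN1-ICD (adjusted p = 5.62e-07). COL1A2 stood at 15.1, 16.7 and 15.9 CPM in MB157R iN1-ICD and 14.8, 12.7 and 16.1 in MB157R iEV. In MB157 iSOX2, COL1A2 had 0.024, 0.0439 and 0.0222 CPM, and in MB157 iEV 0.0301, 0.0702 and 0.0241, or 4 and 5 fragments in all. It rose between the lines by 8.32 ± 0.23 (adjusted p = 4.48e-12) and overlapped with iN1-ICD (0.14 ± 0.088, adjusted p = 0.221). Per kilobase, COL1A2 was 0.129 of COL1A1 in MB157R iN1-ICD and 0.24 in MB157R iEV.

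The type V chains, which start type I fibrils, each took a different course. COL5A1 stood at 0.267, 0.126 and 0.119 CPM in MB157R iN1-ICD and 0.0706, 0.225 and 0.0645 in MB157R iEV. With iSOX2, COL5A1 stood at 4.05, 3.16 and 3.9 and in MB157 iEV at 0.844, 1.26 and 0.94. COL5A1 fell in MB157R iEV (-3.08 ± 0.46, adjusted p = 4.15e-05), rose with iSOX2 (1.85 ± 0.19, adjusted p = 5.76e-07) and missed the threshold with iN1-ICD (0.55 ± 0.66, adjusted p = 0.498). COL5A2 stood at 2.65, 3.2 and 2.66 CPM in MB157R iN1-ICD and 1.76, 1.28 and 1.33 in MB157R iEV. In MB157 iSOX2, COL5A2 had 2.13, 2.31 and 1.97 CPM, and in MB157 iEV 2.26, 2.13 and 2.44. COL5A2 fell in MB157R iEV (-0.63 ± 0.2, adjusted p = 0.0103) and rose with iN1-ICD (0.97 ± 0.19, adjusted p = 0.00159), while iSOX2 overlapped MB157 iEV (-0.089 ± 0.16, adjusted p = 0.66). COL5A3 stood at 1.27, 1.44 and 1.8 CPM in MB157R iN1-ICD and 0.0235, 0.0501 and 0 in MB157R iEV. In parental cells COL5A3 stood at 1.89, 1.78 and 1.49 with iSOX2 and 3.37, 5.36 and 4.32 with iEV. It fell with iSOX2 (-1.35 ± 0.18, adjusted p = 1.09e-05). MB157R iEV held 3 fragments, and the ratio of pooled counts was 64.4 in the direction of MB157R iN1-ICD (counting interval 21.7 to 315, adjusted p = 4.58e-06) and 190 in the direction of MB157 iEV (64.8 to 926, adjusted p = 6.05e-09).
The COL5A3 promoter window is shown because the gene had the widest called rise with iN1-ICD among chains seen in both MB157R groups. It holds the RBPJ letters at 99 and 91 bases before the start site and a GC box 16 bases before it.
COL5A3 (chr19:10010455-10010754, minus strand): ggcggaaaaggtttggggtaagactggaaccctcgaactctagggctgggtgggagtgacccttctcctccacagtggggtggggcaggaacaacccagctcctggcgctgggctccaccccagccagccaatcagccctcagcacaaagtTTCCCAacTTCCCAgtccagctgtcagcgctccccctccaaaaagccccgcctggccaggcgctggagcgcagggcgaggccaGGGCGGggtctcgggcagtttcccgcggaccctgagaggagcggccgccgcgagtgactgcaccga

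The remaining fibril-forming chains were COL27A1, COL24A1 and COL11A2. COL27A1, needed for growth cartilage in mice, stood at 108, 127 and 121 CPM in MB157R iN1-ICD and 109.7, 107 and 92.4 in MB157R iEV. With iSOX2, COL27A1 stood at 33.7, 33.7 and 30.6 and in MB157 iEV at 117, 96.5 and 109.7. The iSOX2 libraries stood apart below the other 3 groups (-1.72 ± 0.063 against MB157 iEV, adjusted p = 3.41e-12), whereas the lines overlapped (-0.055 ± 0.077, adjusted p = 0.506). Its rise with iN1-ICD (0.22 ± 0.076, adjusted p = 0.0332), with overlapping libraries, was lost without MB157R iN1-ICD replicate 2 (0.133) or 3 (0.0824) or MB157R iEV replicate 3 (0.113). COL24A1, found in developing bone, stood at 0.178, 0.202 and 0.0711 CPM in MB157R iN1-ICD and 0.165, 0.0751 and 0.043 in MB157R iEV. In MB157 iSOX2, COL24A1 had 2.3, 1.74 and 1.69 CPM, and in MB157 iEV 0.482, 0.608 and 0.386. COL24A1 fell in MB157R iEV (-2.36 ± 0.51, adjusted p = 0.000798), rose with iSOX2 (1.94 ± 0.25, adjusted p = 8.86e-06) and missed the threshold with iN1-ICD (0.68 ± 0.68, adjusted p = 0.42). COL11A2, a cartilage chain, stood at 0.757, 0.883 and 0.925 CPM in MB157R iN1-ICD and 0.823, 0.426 and 0.473 in MB157R iEV. With iSOX2, COL11A2 stood at 2.49, 2.79 and 2.13 and in MB157 iEV at 3.77, 2.67 and 2.94. COL11A2 fell in MB157R iEV (-2.43 ± 0.27, adjusted p = 3.04e-06). Neither induction passed, at -0.33 ± 0.17 with iSOX2 (adjusted p = 0.11, 0.0478 without MB157 iEV replicate 2) and 0.58 ± 0.32 with iN1-ICD (adjusted p = 0.147, 0.0386 without MB157R iEV replicate 1).

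Fibroblasts are the usual source of fibrillar collagen, so 8 of their markers were read beside these chains. They summed to 303 to 318 CPM in MB157R iN1-ICD, 324 to 347 in MB157R iEV, 149 to 151 in MB157 iSOX2 and 167 to 172 in MB157 iEV. DCN and POSTN, defining fibroblast transcripts, were at 0 in both MB157R groups, FAP was at 0 in MB157R iEV, and THY1 was at 0 in MB157 iEV and at least 313-fold higher in MB157R iEV. In each comparison 4 of the 8 had enough counts for the test. Of these, 3 rose and 1 fell in MB157R iEV (all entries 42.9% and 43.8%). With either induction 2 rose and 1 fell (all entries 28.4% and 27.9% with iSOX2, 27.6% and 25.3% with iN1-ICD). FBLN1 made up most of the sum, and it was higher in MB157R iEV (1.18 ± 0.036, adjusted p = 9.67e-12) and lower with iN1-ICD (-0.15 ± 0.039, adjusted p = 0.00739), whereas PDGFRA fell in MB157R iEV (-3.02 ± 0.088, adjusted p = 6.93e-12). The sum was thus higher in the resistant line, as were COL1A1 and COL1A2, but lower under both inductions, where COL1A1 rose. FBLN1 also fell with iSOX2 (-0.44 ± 0.033), so the lower sums follow this gene. Other markers rose, PDGFRA with iSOX2 (0.72 ± 0.053) and PDGFRB (0.99 ± 0.15) and THY1 (0.65 ± 0.1) with iN1-ICD. The part of these markers in the collagen values was not tested.

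The fibril-associated chains include the type IX chains of cartilage. COL9A3 stood at 25.6, 29.4 and 23.7 CPM in MB157R iN1-ICD and 22.1, 24.1 and 20.1 in MB157R iEV. In parental cells COL9A3 stood at 134, 144 and 142 with iSOX2 and 392, 336 and 351 with iEV. COL9A3 fell in MB157R iEV (-4.02 ± 0.075, adjusted p = 1.21e-13) and with iSOX2 (-1.36 ± 0.05, adjusted p = 3.62e-12). The small rise with iN1-ICD (0.26 ± 0.09, adjusted p = 0.0338), again with overlapping libraries, was lost without MB157R iN1-ICD replicate 1 (0.0507) or 2 (0.136) or MB157R iEV replicate 1 (0.081) or 3 (0.119). COL9A2 stood at 51, 56.1 and 45.1 CPM in MB157R iN1-ICD and 55.5, 58.9 and 56.4 in MB157R iEV. In MB157 iSOX2, COL9A2 had 105, 112 and 111 CPM, and in MB157 iEV 119, 109 and 107. COL9A2 fell between the lines (-0.97 ± 0.048, adjusted p = 1.1e-09) and passed with neither iSOX2 (-0.032 ± 0.043, adjusted p = 0.547) nor iN1-ICD (-0.16 ± 0.071, adjusted p = 0.0866, 0.00978 without MB157R iN1-ICD replicate 2). The ratio of COL9A3 to COL9A2 per kilobase had a median of 0.598 in MB157R iN1-ICD, 0.455 in MB157R iEV, 1.46 in MB157 iSOX2 and 3.73 in MB157 iEV.

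COL9A1, the chain that completes type IX collagen, was scarce, at 0.178, 0.176 and 0.379 CPM in MB157R iN1-ICD and at 0 in the MB157R iEV libraries. With iSOX2, COL9A1 stood at 0.264, 0.0878 and 0.0887 and in MB157 iEV at 1.15, 1.03 and 1.23. It was at least 48.7-fold lower in MB157R iEV than in MB157 iEV and at least 10.5-fold higher in MB157R iN1-ICD than in MB157R iEV, and it fell with iSOX2 (-2.95 ± 0.4, adjusted p = 1.32e-05). The 5 chondrocyte markers (ACAN, COMP, SOX9, MATN1 and MATN3) summed to 499 to 522 CPM in MB157R iN1-ICD, 211 in MB157R iEV, 332 to 342 in MB157 iSOX2 and 468 to 492 in MB157 iEV. SOX9, a transcription factor that other cell types also express, made up most of the sum and fell in MB157R iEV (-1.35 ± 0.033, adjusted p = 1.33e-12), whereas MATN3 rose (3.16 ± 0.081, adjusted p = 2.08e-12). ACAN and COMP were at 0 in both MB157R groups, and the part of these genes in the type IX values was not tested. Of 3 chondrocyte markers tested in MB157R iEV, 1 rose and 1 fell (all entries 42.9% and 43.8%). With iSOX2, 0 of 5 rose and 3 fell (all entries 28.4% and 27.9%). Of 3 tested with iN1-ICD, 1 rose (SOX9, 1.43 ± 0.035) and 1 fell (MATN3, -0.7 ± 0.063), against 27.6% and 25.3% of all entries.

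COL12A1 and COL14A1 both coat type I fibrils and moved in opposite directions between the lines. COL12A1 stood at 239, 203 and 195 CPM in MB157R iN1-ICD and 329, 262 and 358 in MB157R iEV. In MB157 iSOX2, COL12A1 had 19.6, 17.5 and 17.5 CPM, and in MB157 iEV 26, 28.4 and 22.8. It rose in MB157R iEV by 3.63 ± 0.11 (adjusted p = 8.49e-12) and fell with iSOX2 (-0.5 ± 0.075, adjusted p = 3.47e-05) and with iN1-ICD (-0.57 ± 0.1, adjusted p = 0.000781). COL14A1 stood at 0.0223, 0.0252 and 0.0474 CPM in MB157R iN1-ICD and at 0 in MB157R iEV. With iSOX2, COL14A1 stood at 77.5, 70.7 and 77.1 and in MB157 iEV at 2.14, 1.54 and 2.27. It was at least 84.6-fold lower in MB157R iEV than in MB157 iEV and rose with iSOX2 by 5.25 ± 0.086 (adjusted p = 3.88e-16), close to the size of the COL17A1 rise with the same vector.

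COL16A1, COL21A1 and COL22A1 are further members of the family. COL16A1, found near basement membranes and on fibrils, stood at 92.7, 104 and 87.2 CPM in MB157R iN1-ICD and 122, 124 and 128 in MB157R iEV. In parental cells COL16A1 stood at 9.11, 7.12 and 7.74 with iSOX2 and 8.29, 7.77 and 8.85 with iEV. It rose in MB157R iEV by 3.91 ± 0.052 (adjusted p = 7.23e-15) and fell with iN1-ICD (-0.38 ± 0.061, adjusted p = 0.000335), and iSOX2 overlapped MB157 iEV (-0.057 ± 0.1, adjusted p = 0.648). COL21A1 stood at 0.245, 0.0504 and 0.237 CPM in MB157R iN1-ICD and 0.188, 0.376 and 0.387 in MB157R iEV. With iSOX2, COL21A1 stood at 7.62, 6.76 and 6.59 and in MB157 iEV at 1.78, 1.29 and 1.66. COL21A1 fell in MB157R iEV (-2.29 ± 0.32, adjusted p = 2.23e-05) and rose with iSOX2 (2.16 ± 0.14, adjusted p = 2.82e-09), and with iN1-ICD the libraries overlapped (-0.8 ± 0.55, adjusted p = 0.245). COL22A1, a collagen of the muscle-tendon junction, stood at 7.04, 7.57 and 5.95 CPM in MB157R iN1-ICD and 4.56, 3.66 and 3.31 in MB157R iEV. The iSOX2 libraries held 3 fragments in all (0.024, 0.0439 and 0 CPM) and the MB157 iEV libraries 1 (0.0301, 0 and 0 CPM). The ratio of pooled counts between the lines was 450 in the direction of MB157R iEV (counting interval 80.4 to 17800, adjusted p = 3.72e-09), and COL22A1 rose with iN1-ICD by 0.84 ± 0.15 (adjusted p = 0.000717).

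A pair of less known collagens lies outside these families. COL26A1 stood at 0.913, 1.21 and 0.735 CPM in MB157R iN1-ICD and 0.682, 0.351 and 0.753 in MB157R iEV. With iSOX2, COL26A1 stood at 4.94, 5.58 and 4.9 and in MB157 iEV at 6.66, 6.58 and 6.2. COL26A1 fell in MB157R iEV (-3.41 ± 0.21, adjusted p = 1.01e-08) and with iSOX2 (-0.33 ± 0.1, adjusted p = 0.01, lost in a fit over all 12 libraries) and overlapped with iN1-ICD (0.67 ± 0.34, adjusted p = 0.113). COL28A1, a collagen of peripheral nerve, stood at 0, 0.0756 and 0.0949 CPM in MB157R iN1-ICD and 0.0235, 0.0751 and 0.0215 in MB157R iEV. In MB157 iSOX2, COL28A1 had 1.92, 1.23 and 1.04 CPM, and in MB157 iEV 0.271, 0.234 and 0.53. COL28A1 fell in MB157R iEV (-3.05 ± 0.67, adjusted p = 0.000782) and rose with iSOX2 (1.99 ± 0.35, adjusted p = 0.000167), and was too low to test with iN1-ICD.

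The 8 chains under 1 CPM in every group were COL2A1 and COL3A1, the main chains of cartilage and of soft tissue fibrils, and COL6A5, COL6A6, COL10A1, COL11A1, COL19A1 and COL20A1. Their highest group means lay between 0.0149 and 0.826 CPM, and they held 2 to 152 fragments over the 12 libraries. Only COL19A1 with iN1-ICD (2.14 ± 0.41, adjusted p = 0.00126) and COL2A1 with iSOX2 (1.96 ± 0.43, adjusted p = 0.00105) were called among them. Most of the other differences among these chains had too few fragments for the test. COL3A1 had 2 fragments in MB157R iN1-ICD and 11 in MB157R iEV, a ratio of pooled counts of 5.41 in the direction of MB157R iEV, with a counting interval of 1.18 to 50.2 (95%) and no test across replicates. Larger untested ratios were those of COL19A1 against MB157 iEV, 10.9 higher in MB157R iEV (2.71 to 95.4) and 9.32 higher in MB157 iSOX2 (2.28 to 82). For COL2A1 the ratio was 8.05 in the direction of MB157 iEV over MB157R iEV (2.42 to 42).

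The effects of SOX2 in MB157 and of N1-ICD in MB157R share no library, so their difference was tested in a single fit over all 12 libraries. Of 39 chains tested, 17 (43.6%) differed between the inductions, where 49.7% of all entries differed in either direction. The effect of SOX2 was higher for 4 of them and that of N1-ICD for 13. The shares of all entries by direction are not given here, so this split cannot be set against them. Of the 30 chains tested under both inductions, COL1A1, COL25A1, COL4A4 and COL6A2 rose under both and COL12A1, COL4A1, COL4A2 and COL7A1 fell under both. COL17A1 rose with SOX2 and fell with N1-ICD, and the effects differed by 6.88 ± 0.18 (adjusted p = 1.45e-14). The opposite course, a fall with SOX2 and a rise with N1-ICD, was taken by 7 chains, namely COL15A1, COL27A1, COL5A3, COL6A3, COL8A2, COL9A1 and COL9A3. Among these the effects differed by -4.31 ± 0.46 for COL6A3 (adjusted p = 5.41e-07), -2.04 ± 0.17 for COL8A2 (adjusted p = 2.51e-08) and -1.93 ± 0.11 for COL27A1 (adjusted p = 2.35e-10). COL21A1 (2.96 ± 0.48, adjusted p = 6.05e-05) and COL6A1 (0.78 ± 0.083, adjusted p = 6.4e-07) also had a higher effect of SOX2. The direction of COL1A1 was shared but its rise was larger with N1-ICD (-0.55 ± 0.12, adjusted p = 0.000738). Some calls behind these groupings were lost in fits without 1 library. With iSOX2 they were those of COL15A1, COL6A3 and COL4A4, and with iN1-ICD those of COL27A1, COL9A3 and COL4A4. The shares of all entries that moved alike or oppositely are not given here, so these counts cannot be set against them.

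No type IV chain differed between the inductions by this test, with differences of 0.17 ± 0.078 for COL4A1 (adjusted p = 0.0759) and -0.23 ± 0.1 for COL4A2 (adjusted p = 0.0624), both of which passed in some fits without 1 library, -0.91 ± 0.48 for COL4A3 (adjusted p = 0.131) and 0.093 ± 0.27 for COL4A4 (adjusted p = 0.823). COL4A5 and COL4A6 were not called either, but they held few fragments in the parental line. COL4A5 had 23 with iSOX2 and 31 in MB157 iEV, and COL4A6 had 1 in each. The missing calls of these chains therefore show no shared response. COL7A1 differed by 0.3 ± 0.17 (adjusted p = 0.157) and COL12A1 by 0.073 ± 0.15 (adjusted p = 0.741). Other chains with a call were COL18A1 (-0.68 ± 0.076), COL9A3 (-1.6 ± 0.11), COL13A1 (-1.83 ± 0.55), COL5A2 (-1.05 ± 0.24) and COL26A1 (-0.99 ± 0.3), along with COL5A3, COL9A1 and COL15A1, whose fitted sizes rest on groups with at most 3 fragments. The calls of COL11A2 (-0.9 ± 0.34, adjusted p = 0.0364) and COL16A1 (0.34 ± 0.12, adjusted p = 0.022) were the least firm: that of COL11A2 was lost in 7 of 12 fits without 1 library, and that of COL16A1 without MB157 iSOX2 replicate 1 (0.093) or MB157 iEV replicate 2 (0.073).

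**Figure D3:**
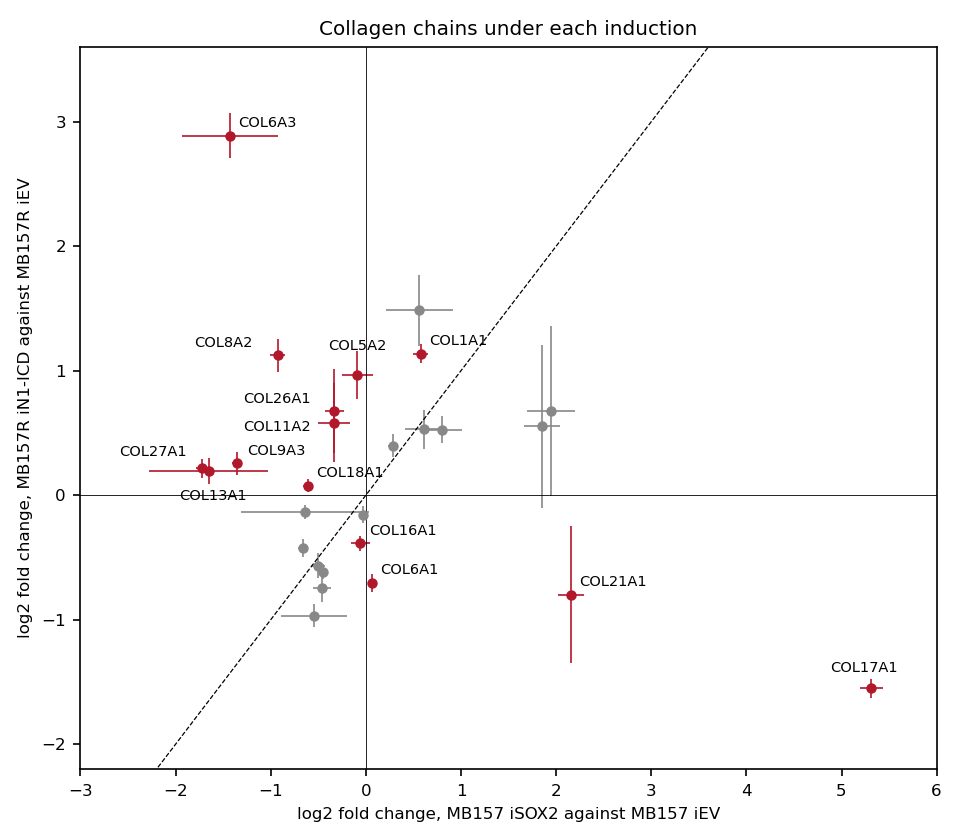
Log2 fold change of collagen chains with iSOX2 in MB157 (x axis) and with iN1-ICD in MB157R (y axis), with standard errors as bars, for chains with more than 3 fragments in each group; red, labelled chains had effects that differed between the inductions at adjusted p under 0.05 and grey chains did not, and the dashed line marks equal effects. COL17A1 stands apart at the lower right and COL6A3 at the upper left.

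Collagen needs a large set of enzymes and carriers before it leaves the cell. Of 19 genes for modification and folding, 12 rose and 4 fell in MB157R iEV against MB157 iEV, where 42.9% of all entries rose and 43.8% fell (median 0.71 against -0.016 over all entries). The folding helper FKBP10 rose by 4.57 ± 0.058 and the prolyl hydroxylase LEPREL1 by 2.41 ± 0.094, and the lysyl hydroxylase PLOD1 (-2.09 ± 0.039) and CRTAP, a subunit of the prolyl 3-hydroxylase complex (-1.35 ± 0.037), fell. With iSOX2, 7 rose and 9 fell, where 28.4% of all entries rose and 27.9% fell (median -0.0169 against 0.00676), the galactosyltransferase COLGALT2 rising by 5.02 ± 0.1 and P4HB by 0.37 ± 0.027, and LEPREL1 (-1.89 ± 0.16) and LEPREL2 (-0.95 ± 0.077) falling. With iN1-ICD, 5 rose and 12 fell, where 27.6% of all entries rose and 25.3% fell (median -0.171 against 0.00985), with COLGALT2 (0.88 ± 0.16) and CRTAP (0.6 ± 0.052) rising and LEPREL1 (-1.07 ± 0.074) and PPIB (-0.52 ± 0.045) falling. LEPREL1 and LEPREL2 are the table's names for the prolyl 3-hydroxylases P3H2 and P3H3.

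Of 21 genes for procollagen export and processing, 11 of 20 tested rose and 9 fell in MB157R iEV (all entries 42.9% and 43.8%, median 0.522), led by the procollagen proteinases TLL1 (5.76 ± 0.19) and TLL2 (3.38 ± 0.3), with the vesicle coat gene SEC31A (-1.85 ± 0.034) and the tethering factor TRAPPC2 (-1.15 ± 0.062) lower. With iSOX2, 10 of 19 rose and 2 fell (all entries 28.4% and 27.9%, median 0.117), with the vesicle coat gene SEC24D (0.86 ± 0.058) and the procollagen proteinase ADAMTS3 (0.75 ± 0.21) higher, and PCOLCE (-0.51 ± 0.092) and BMP1 (-0.26 ± 0.067) lower. With iN1-ICD, 5 of 19 rose and 2 fell (all entries 27.6% and 25.3%, median 0.00218), among them CREB3L1, a transcription factor of collagen secretion (3.54 ± 0.12), and ADAMTS14 (0.98 ± 0.26), with TLL1 (-0.78 ± 0.078) and ADAMTS3 (-0.32 ± 0.1) lower.

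Of the 12 collagen receptors, 5 of 9 tested rose and 3 fell in MB157R iEV (all entries 42.9% and 43.8%, median 0.168). The integrin chains ITGA1 (6.8 ± 0.18) and ITGA2 (5.78 ± 0.074) rose, and ITGA10 (-5.43 ± 0.26) and the receptor kinase DDR2 (-2.6 ± 0.22) fell. With iSOX2, 3 of 10 rose and 6 fell (all entries 28.4% and 27.9%, median -0.17), ITGA2 (1.64 ± 0.076) and ITGB1 (0.27 ± 0.026) rising and DDR2 (-1.66 ± 0.15) and ITGA10 (-1.17 ± 0.12) falling. With iN1-ICD, 4 of 9 rose and 1 fell (all entries 27.6% and 25.3%, median 0.086), ITGA1 (0.99 ± 0.066) and DDR2 (0.72 ± 0.27) rising and ITGB1 (-0.58 ± 0.054) falling.

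Of the 13 genes for collagen degradation, 9 of 10 tested rose and 1 fell in MB157R iEV (all entries 42.9% and 43.8%), with a median of 2.28 against -0.016 over all entries. MMP1, which cuts fibrillar collagen, was at 0 in MB157 iEV and at least 15600-fold higher in MB157R iEV, and MMP2, which cuts type IV collagen and gelatin, rose by 11.54 ± 0.1, whereas the dipeptidase PEPD fell (-1.44 ± 0.044). With iSOX2, 4 of 9 rose and 2 fell (all entries 28.4% and 27.9%, median 0.244), with CTSK (0.75 ± 0.22) and CTSL (0.24 ± 0.044) higher and the collagen uptake receptor MRC2 (-1.16 ± 0.048) and CTSB (-0.19 ± 0.034) lower. With iN1-ICD, 3 of 11 rose and 3 fell (all entries 27.6% and 25.3%, median -0.0728), with CTSB (0.42 ± 0.045) and PEPD (0.19 ± 0.049) higher and the collagenase MMP13 (-4.09 ± 0.14) and MMP2 (-1.51 ± 0.066) lower.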

How the data were processed

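RNA was sequenced from 12 libraries, 3 in each of 4 groups named by their labels. The authors aligned and quantified paired reads with STAR and Salmon against hg38 in a reverse-stranded nf-core workflow. The authors deposited estimated counts per gene as summed by that workflow; the annotation they used is not given in the sources used here. For each comparison they also deposited log2 expression values of filtered genes, which served here only as an alternative gene filter. The estimated counts were rounded to whole numbers, and 88% were already whole.

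Each comparison was fitted on its 6 libraries with edgeR 4.0.16 in R 4.3.3 (quasi-likelihood test, TMM factors, mean count of at least 5), with Benjamini-Hochberg adjustment over all entries tested and a call at adjusted p under 0.05; the study's own methods name limma. The difference between inductions used all 12 libraries. Levels are CPM on 1 set of TMM factors over the 12 libraries, and levels of different genes are compared per kilobase of the canonical GENCODE transcript. Total counts were 32773816 to 49055204 per library. Counting intervals (95%, exact) and the limit of 3 counts behind an observed 0 cover counting error only. Scripts were tested on simulated data, where false calls made up a larger share of all calls than the threshold sets. No replicate pair agreed within sampling noise, so each library counts once.

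Chains with at least 1 CPM in a group are given in every library. From each list (modification and folding, export and processing, receptors, degradation, type IV partners, hemidesmosome partners, and markers of fibroblast, endothelium, leukocyte, mammary epithelium and chondrocyte) the genes eligible for naming were the 2 largest called rises and falls averaging at least 1 CPM. Some list genes that met this rule are not reported here. The members and lists were chosen with earlier results of these data known. Promoter windows come from RefSeq (GRCh38.p14). Alternatives were limma-voom 3.58.1, DESeq2 1.42.0, other scaling, no filter, the authors' gene filter, a fold threshold, a fit over 12 libraries, a replicate block and leaving out each library.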

Additional observations from a re-analysis of the deposited data

How the results depend on the processing

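No called difference changed direction under any alternative run. Leaving aside the fold threshold, 31 of 33 calls in MB157R iEV against MB157 iEV, 18 of 26 with iSOX2 and 18 of 24 with iN1-ICD held under every alternative. For the difference between the inductions only other scaling and leaving out 1 library were run, and 15 of 17 calls held under these. With the authors' filtered genes, which include 20, 16 and 20 chains, 5 chains fell in MB157R iEV, 4 rose and 9 fell with iSOX2, and 6 rose with iN1-ICD, because fewer chains were tested. Requiring differences beyond 1 on the log2 scale (glmTreat) gave 7 higher and 3 lower with iSOX2 and 4 higher and 1 lower with iN1-ICD. Leaving out 1 library gave 17 to 18 higher and 15 to 17 lower in MB157R iEV, 11 to 12 and 11 to 14 with iSOX2, 10 to 15 and 9 to 11 with iN1-ICD, and 15 to 19 differences between the inductions. Replicate numbers did not pair the samples (correlations of same-numbered deviations between -0.182 and 0.0865), and with a replicate block the counts were 17 higher and 14 lower in MB157R iEV, 8 and 11 with iSOX2, and 12 and 8 with iN1-ICD. The calls lost with the block were COL28A1 and COL5A2 in MB157R iEV, COL13A1, COL15A1, COL25A1, COL2A1, COL4A4, COL6A2 and COL6A3 with iSOX2, and COL16A1, COL19A1, COL4A4 and COL9A1 with iN1-ICD. Scaling by library totals alone moved the split of all entries with iSOX2 to 5774 higher and 3562 lower, against 4654 and 4581. Some uncalled log2 differences changed sign. With library totals alone these were COL4A3 in MB157R iEV (-0.0019) and, with iSOX2, COL16A1 (0.0073) and COL9A2 (0.032). With the replicate block they were COL4A3 in MB157R iEV (-0.67), COL16A1 (0.093), COL20A1 (-0.47), COL4A3 (-0.052) and COL6A1 (-0.0042) with iSOX2, and COL9A2 with iN1-ICD (0.038). Without 1 library, COL4A3 ranged from -0.21 to 0.32 and COL27A1 from -0.13 to 0.0081 in MB157R iEV, COL16A1 from -0.16 to 0.018 and COL9A2 from -0.072 to 0.0044 with iSOX2. For the difference between the inductions the ranges were -0.025 to 0.19 (COL12A1), -0.93 to 0.031 (COL1A2), -0.50 to 2.30 (COL22A1), -2.67 to 0.97 (COL2A1), -0.12 to 0.23 (COL4A4), -0.90 to 0.11 (COL4A5) and -1.37 to 2.43 (COL4A6). The cause of these shifts was not tested. Depth limits the chains with few fragments, where a count of 0 in a group allows up to 0.0256 CPM.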
